A study of Mus musculus with 8 samples.

Results

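Toll-like receptors and their adaptors were followed in CT26 tumors by 10 mouse genes, namely Tlr1, Tlr2, Tlr4, Tlr6, Tlr7, Tlr8, Tlr9, Tlr13, Myd88 and Ticam1. The genes were taken by name, as every non-control probe that the array annotation assigns to one of them. This gave 19 probes, of which 17 were tested, and all 10 genes kept at least 1 tested probe among 21497 gene names tested and 37058 on the array. CT26 cells derive from a BALB/c colon carcinoma, and 500000 of them were implanted under the skin of the flank. Mice received vehicle, TP-16 (named BY001 in the labels; an antagonist of the prostaglandin E2 receptor EP4) at a daily oral dose of 75 mg/kg, an antibody to PD-1 at 50 µg into the peritoneum in 2 doses a week, or the combination of both at these doses. Tumors were collected after 2 weeks, and total RNA of 2 samples per group was measured on 8 one-colour arrays. All groups share the same implanted line, so the host's own immune cells and the tumor cells entered each RNA together. The labels do not say whether a sample was 1 tumor or a pool, and the p-values measure only the spread between these samples. In whole tumors, fewer cells of a type and less RNA per cell cannot be told apart.

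Toll-like receptors are membrane proteins of innate immune cells that bind molecules of microbes and of damaged cells. Tlr1, Tlr2, Tlr4 and Tlr6 sit at the cell surface, where Tlr2 pairs with Tlr1 or Tlr6 to bind lipoproteins and Tlr4 binds lipopolysaccharide, while Tlr7, Tlr8, Tlr9 and Tlr13 sit in endosomes and bind nucleic acids. The receptors listed here recruit the adaptor Myd88, and Tlr4 also recruits Ticam1 (TRIF), which leads to NF-kB and interferon regulatory factors. In tumors these receptors are best known from macrophages, dendritic cells, neutrophils and B cells.

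All 8 arrays lay on 1 slide. Vehicle and TP-16 arrays filled the upper row, and anti-PD-1 and combination arrays the lower row, so that slide row and antibody cannot be told apart, nor can slide column and TP-16. The share of probes well above background ranged from 51.4% to 59.7%. Values are log2 intensities relative to the 75th percentile of the array, so a value compares samples for 1 probe and never 1 gene with another. On this scale the median of all 31912 tested probes lay at -0.20 in the combination against vehicle, at -0.12 in TP-16 and at -0.10 in anti-PD-1, and a rise of a gene is read beside these shifts. Calls of 2 kinds are given. The fold threshold takes the limits of the methods, a change of 2-fold or more and a p of 0.05 or less before adjustment, but with limma's p in place of the p of the methods' t-test. The other, named adjusted p, asks for 0.05 or less after Benjamini-Hochberg adjustment over all tested probes, at any fold. Where several probes were tested for a gene, the brightest over the 8 arrays stood for it.

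In the combination against vehicle, 5 of the 10 genes rose at adjusted p and none fell, beside 9.1% of all tested probes that rose and 22.9% that fell. The genes that rose were Tlr8, Tlr1, Tlr13, Tlr6 and Myd88. At the fold threshold 2 genes rose, Tlr8 and Tlr1, and none fell, beside 6.12% of all tested probes that rose and 9.17% that fell. The split of the background moved with the scaling. Under quantile normalization 9.56% of all tested probes rose and 4.44% fell at the fold threshold, and 12.6% rose and 12.8% fell at adjusted p, where 3 and 4 of the 10 genes rose (Tlr13 was added at the fold threshold, and Tlr6 was lost at adjusted p). All 10 fold changes were above 0, with a median log2 fold change of 0.76. In 7 of the 10 genes both combination arrays lay above both vehicle arrays, which held for 23.3% of all tested probes. In none did both lie below, which held for 47.4%. One array decided much of the count at adjusted p. Without combination replicate 2, none of the 10 genes and none of the 31912 probes passed adjusted p, and 1 gene, Tlr8, passed the fold threshold. Without vehicle replicate 1 the adjusted count was 1, again Tlr8, and without vehicle replicate 2 or without combination replicate 1 the count at the fold threshold was 5, with Tlr2, Tlr6 and Tlr13 added. Without combination replicate 1, or without any single TP-16 or anti-PD-1 array, 3 genes passed adjusted p (Tlr1, Tlr8 and Tlr13).

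**Figure D1:**
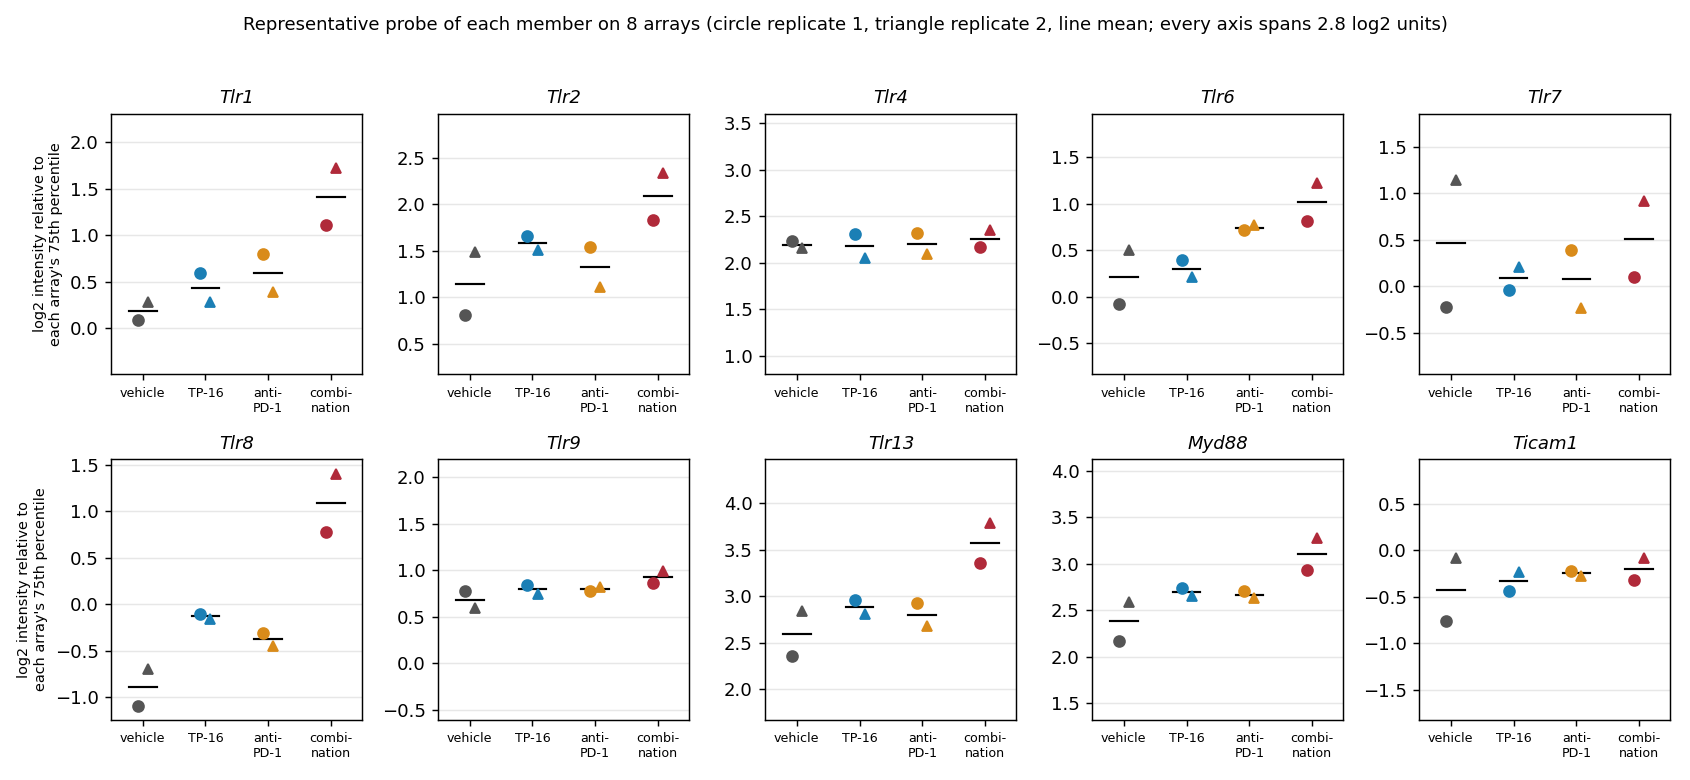
Log2 intensity relative to the 75th percentile of each array (y axis) in the 4 groups (x axis), for the probe that stands for each of the 10 genes. Points are single arrays and lines are means of 2. The combination arrays of Tlr8 lie at 0.78 and 1.41, above the arrays of every other group, while those of Tlr4 lie at 2.17 and 2.35 among the others.

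**Figure D2:**
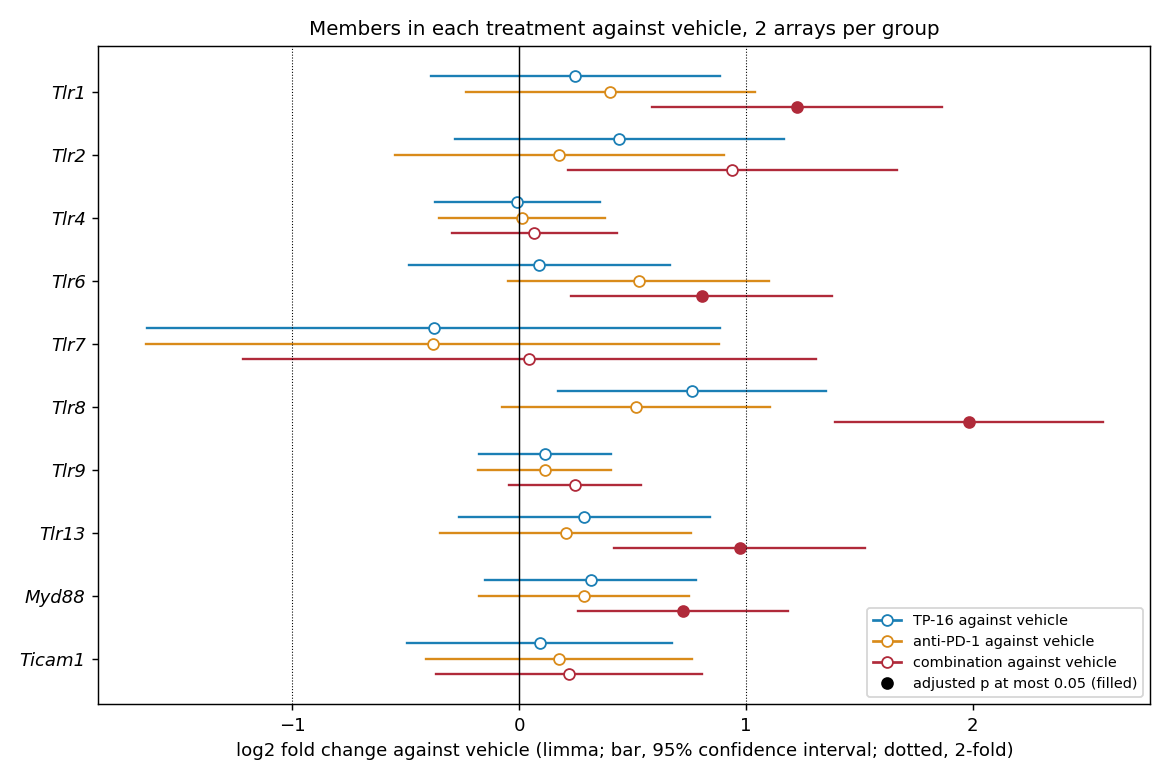
Log2 fold change against vehicle (x axis) with its 95% confidence interval for each gene (y axis) and treatment. Filled points passed adjusted p, which only genes of the combination did. Tlr8 lies at 1.98 in the combination, at 0.76 in TP-16 and at 0.52 in anti-PD-1.

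The sequence before the start of transcription is shown for the 5 genes that rose at adjusted p. RefSeq promoters were matched for 8 of the 10 genes, with 10 promoters in all, since Tlr1 and Tlr6 have 2 each. The 250 bases before the start were searched on both strands for 5 short motifs, GAGGAAG (the kind bound by ETS factors such as PU.1), GAAANNGAA (interferon response type), TTNNGCAA (C/EBP type), TGANTCA (AP-1) and GGGANTTTC (NF-kB type). Sequences run from 5′ to 3′ along the gene in the C57BL/6J reference (build GRCm38.p6), and capitals mark a match.
Tlr8, chrX:167264330-167264579, minus strand: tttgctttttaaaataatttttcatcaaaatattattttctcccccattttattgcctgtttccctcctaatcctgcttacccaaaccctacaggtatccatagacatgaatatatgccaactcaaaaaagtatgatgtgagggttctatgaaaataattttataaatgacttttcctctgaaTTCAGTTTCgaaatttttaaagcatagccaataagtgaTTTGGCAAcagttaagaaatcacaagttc
Tlr1, chr5:64933559-64933808, minus strand: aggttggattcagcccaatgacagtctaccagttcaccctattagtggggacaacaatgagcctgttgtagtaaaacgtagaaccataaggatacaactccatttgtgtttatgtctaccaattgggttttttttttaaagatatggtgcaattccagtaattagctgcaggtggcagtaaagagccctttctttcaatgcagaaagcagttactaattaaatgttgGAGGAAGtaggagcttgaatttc
Tlr1, chr5:64932700-64932949, minus strand: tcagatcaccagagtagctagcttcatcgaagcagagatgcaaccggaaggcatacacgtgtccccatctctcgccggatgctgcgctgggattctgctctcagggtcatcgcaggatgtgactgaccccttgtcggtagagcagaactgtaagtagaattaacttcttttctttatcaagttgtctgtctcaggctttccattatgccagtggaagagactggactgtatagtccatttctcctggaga
Tlr13, chrX:106143025-106143274, plus strand: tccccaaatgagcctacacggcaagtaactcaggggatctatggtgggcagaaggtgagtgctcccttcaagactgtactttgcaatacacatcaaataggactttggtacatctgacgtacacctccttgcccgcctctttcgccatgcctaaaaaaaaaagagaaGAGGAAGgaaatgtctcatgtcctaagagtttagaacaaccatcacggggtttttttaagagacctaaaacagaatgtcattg
Tlr6, chr5:64959167-64959416, minus strand: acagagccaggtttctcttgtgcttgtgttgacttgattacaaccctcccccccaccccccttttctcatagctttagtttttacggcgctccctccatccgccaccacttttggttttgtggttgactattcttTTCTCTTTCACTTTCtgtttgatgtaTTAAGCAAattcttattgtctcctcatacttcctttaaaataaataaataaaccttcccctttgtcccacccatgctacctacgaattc
Tlr6, chr5:64960049-64960298, minus strand: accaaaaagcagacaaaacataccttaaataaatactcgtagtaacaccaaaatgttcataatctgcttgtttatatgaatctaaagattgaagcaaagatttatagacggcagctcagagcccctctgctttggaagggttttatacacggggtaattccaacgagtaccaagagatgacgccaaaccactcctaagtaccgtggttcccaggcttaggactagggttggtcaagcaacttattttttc
Myd88, chr9:119340019-119340268, minus strand: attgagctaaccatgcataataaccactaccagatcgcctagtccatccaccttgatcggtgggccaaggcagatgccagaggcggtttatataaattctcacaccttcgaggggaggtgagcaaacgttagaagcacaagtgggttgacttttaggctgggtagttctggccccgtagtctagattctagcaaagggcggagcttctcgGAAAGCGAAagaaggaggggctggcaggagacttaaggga
The ETS letters stood in the promoter of Tlr13, 83 bases before the start, and in 1 of the 2 promoters of Tlr1, 23 bases before it. They also stood in those of Tlr9 and Ticam1, which did not pass adjusted p, and 10.6% of 32851 promoters hold them. The interferon response letters stood in the promoters of Tlr8 and Myd88 and in 1 of the 2 of Tlr6, where 7.13% of all promoters hold them. The pair of matches in Tlr6 overlap. The C/EBP letters stood in that of Tlr8 and in the same promoter of Tlr6, against 9.56% of all promoters. The other promoter of Tlr1, the other of Tlr6 and that of Tlr2 held none of the motif letters searched. The AP-1 letters stood in that of Tlr9, against 6.75%, and the NF-kB letters stood in none of the 10, against 0.941%. Other forms of these motifs were not searched, so a promoter without a match may hold another form. A match describes these letters in this window and is not a site of binding.

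Tlr8, an endosomal receptor, showed the largest fold change among the 10 genes in the combination. Its brightest probe lies on chromosome X at 163679328 to 163679387 of the mm9 build, minus strand. It read -1.09 and -0.70 in vehicle, -0.10 and -0.16 in TP-16, -0.31 and -0.44 in anti-PD-1, and 0.78 and 1.41 in the combination. The arrays of the 4 groups did not overlap, and the order was vehicle, anti-PD-1, TP-16 and combination. The combination was 3.96-fold above vehicle (log2 1.98, SE 0.24, n = 2 per group, limma adjusted p = 0.0102). It was also 2.33-fold above TP-16 (limma adjusted p = 0.125) and 2.77-fold above anti-PD-1 (limma adjusted p = 0.0722). TP-16 alone was 1.70-fold above vehicle (limma adjusted p = 0.131). TP-16 and anti-PD-1 differed by 0.25 on the log2 scale, with an interval of -0.34 to 0.84.

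Tlr8 had 3 dimmer probes, all not well above background in vehicle. The first 30 bases of the brightest probe and of these 3 are shown because the probes differ in how firmly they measured the gene. Capitals are not used here.
A_66_P131283: ttgagactataactacatcattccctcttt
A_55_P1996271: tgatgggaagtcacgactctgccatcataa
A_51_P176893: tgttttggcaaagtctgaaaaatgtggtct
A_55_P2718309: agaacatggatagttcatcctggctctgat
The probe A_55_P1996271 was at least 1.31-fold higher in the combination than in vehicle (limma adjusted p = 0.011), and A_51_P176893 at least 1.24-fold higher (limma adjusted p = 0.123). Such a bound sets the mean of the combination against the lowest signal that counted as well above background on the vehicle arrays. The probe A_55_P2718309 gave no bound above 1, and its limma adjusted p was 0.405. These 3 probes entered the test only through groups in which they were well above background, the combination for all of them and TP-16 also for A_55_P1996271, so they are no further support for the value of the brightest probe. In both single agents A_55_P1996271 passed the fold threshold as fitted against vehicle (limma adjusted p = 0.119 in TP-16 and 0.243 in anti-PD-1). No fold is given there, since vehicle and anti-PD-1 were not well above background and the bound for TP-16 did not exceed 1.

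**Figure D3:**
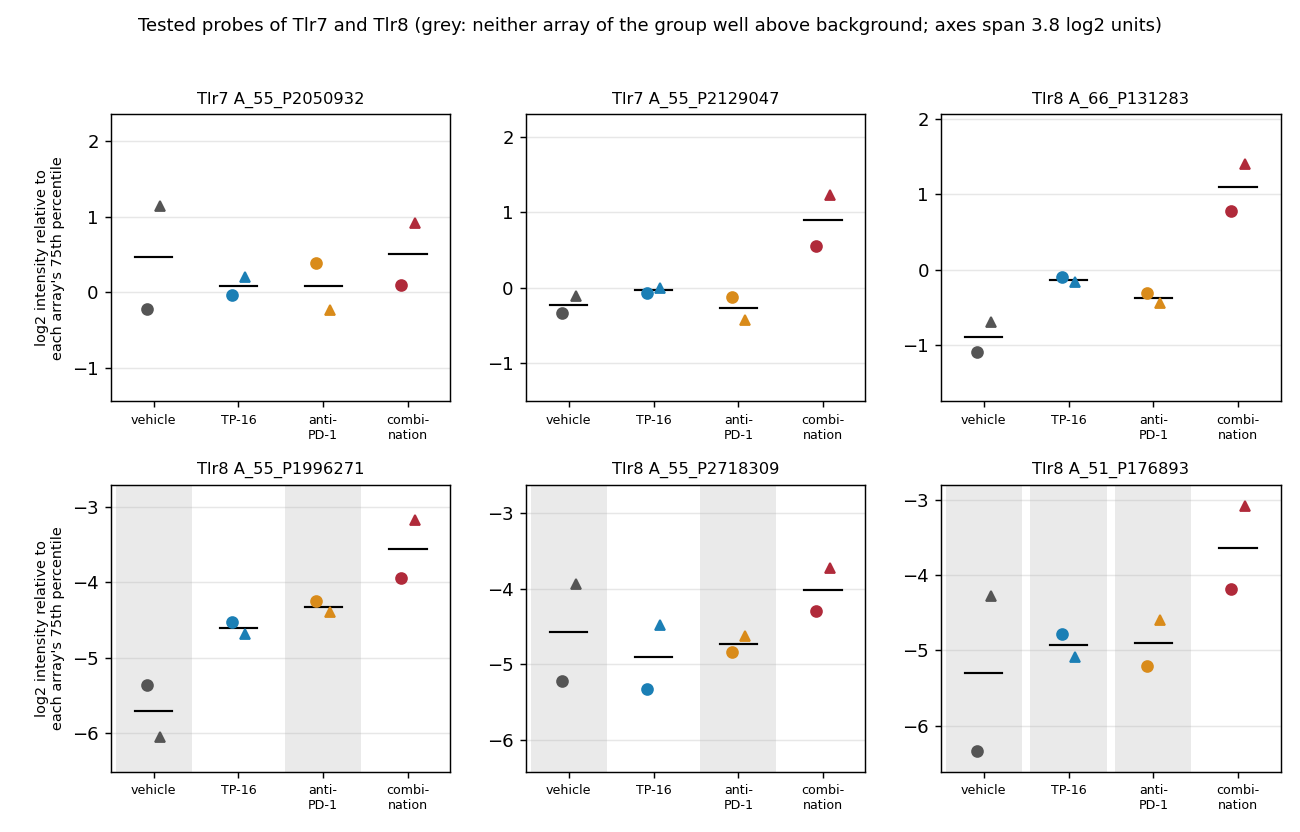
Log2 intensity relative to the 75th percentile of each array (y axis) in the 4 groups (x axis) for the 2 tested probes of Tlr7 and the 4 of Tlr8, with points for arrays and lines for means. Grey marks groups in which neither array was well above background. The 2 vehicle arrays of the Tlr7 probe A_55_P2050932 lie at -0.22 and 1.15, while those of A_55_P2129047 lie at -0.34 and -0.11.

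Tlr7, the neighbour of Tlr8 on chromosome X and a receptor for single-stranded RNA, had 2 tested probes. Only the dimmer of them passed adjusted p in the combination against vehicle. Both lie on the minus strand of the mm9 build, at 163742863 to 163742922 (A_55_P2050932) and at 163743146 to 163743205 (A_55_P2129047). Their first 30 bases are shown because the result for the gene turns on which is read.
A_55_P2050932: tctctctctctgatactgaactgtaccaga
A_55_P2129047: cataaatgaaggtctgaatttttcctaaca
A_55_P2050932, the brighter one, read -0.22 and 1.15 in vehicle, -0.03 and 0.21 in TP-16, 0.39 and -0.23 in anti-PD-1, and 0.10 and 0.92 in the combination. All groups overlapped, and the combination differed from vehicle by 0.04 on the log2 scale (SE 0.51, limma adjusted p = 0.954), with an interval of -1.22 to 1.31. A_55_P2129047 read -0.34 and -0.11 in vehicle, -0.07 and 0.00 in TP-16, -0.12 and -0.44 in anti-PD-1, and 0.55 and 1.23 in the combination. There the combination arrays lay above all others and were 2.17-fold above vehicle (log2 1.12, SE 0.25, limma adjusted p = 0.0232). That value lies inside the wide interval of the brighter probe. A further Tlr7 probe was not well above background on any array and was not tested.

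Tlr13, an endosomal receptor for bacterial ribosomal RNA in mice, has its brightest probe on chromosome X at 103355773 to 103355832, plus strand. It read 2.36 and 2.84 in vehicle, 2.96 and 2.81 in TP-16, 2.92 and 2.68 in anti-PD-1, and 3.36 and 3.78 in the combination. The combination arrays lay above all others, while both single agents overlapped vehicle. The combination was 1.96-fold above vehicle (log2 0.97, SE 0.22, limma adjusted p = 0.0257), and the dimmer probe of the gene gave 2.16-fold (limma adjusted p = 0.0255). Without combination replicate 2 the brighter probe gave log2 0.76 with a limma adjusted p of 0.136.

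Tlr9, the endosomal receptor for unmethylated CpG DNA, read 0.77 and 0.59 in vehicle, 0.85 and 0.74 in TP-16, 0.77 and 0.82 in anti-PD-1, and 0.86 and 1.00 in the combination. Both combination arrays lay above both vehicle arrays, but the difference of 0.25 on the log2 scale (SE 0.12) did not pass (limma adjusted p = 0.157). Its interval ran from -0.05 to 0.54, the narrowest of the 10 genes in this comparison.

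Among the cell-surface receptors, Tlr1 had the largest fold change in the combination. Its brightest probe, on chromosome 5 at 65315994 to 65316053, minus strand, read 0.09 and 0.29 in vehicle, 0.60 and 0.28 in TP-16, 0.80 and 0.39 in anti-PD-1, and 1.11 and 1.73 in the combination. The combination arrays lay above all others, and anti-PD-1 lay above vehicle without overlap. The combination was 2.34-fold above vehicle (log2 1.23, SE 0.26, limma adjusted p = 0.0209), and the other probe gave 2.63-fold (limma adjusted p = 0.0136). Without combination replicate 2 the brightest probe gave log2 0.92 with a limma adjusted p of 0.102.

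Tlr6 lies next to Tlr1 on chromosome 5, with its probe at 65344365 to 65344424, minus strand. It read -0.08 and 0.50 in vehicle, 0.39 and 0.21 in TP-16, 0.72 and 0.77 in anti-PD-1, and 0.82 and 1.22 in the combination. The combination was 1.75-fold above vehicle (log2 0.80, SE 0.23, limma adjusted p = 0.0465). This call was lost under quantile normalization (limma adjusted p = 0.0572) and with a replicate block. Anti-PD-1 alone lay at 1.44-fold above vehicle without overlap (limma adjusted p = 0.371). Neighbouring arrays in this order were close, since the combination exceeded anti-PD-1 by 0.28 on the log2 scale with an interval of -0.30 to 0.85.

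Tlr2, which pairs with both of them, read 0.81 and 1.48 in vehicle, 1.66 and 1.51 in TP-16, 1.54 and 1.11 in anti-PD-1, and 1.83 and 2.34 in the combination. Its probe lies on chromosome 3 at 83640344 to 83640403, minus strand. The combination arrays lay above all others, but the 1.92-fold difference from vehicle (log2 0.94, SE 0.29) stood just outside the threshold (limma adjusted p = 0.0568). Without vehicle replicate 2 it was 1.28 on the log2 scale (limma adjusted p = 0.0411), and without vehicle replicate 1 it was 0.60.

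Tlr4 read 2.23 and 2.16 in vehicle, 2.31 and 2.06 in TP-16, 2.32 and 2.10 in anti-PD-1, and 2.17 and 2.35 in the combination. The groups overlapped throughout. The combination differed from vehicle by 0.07 on the log2 scale (limma adjusted p = 0.748), with an interval of -0.30 to 0.43, narrower than a 2-fold change either way. A further Tlr4 probe, A_55_P2714823, gave 0.28 (limma adjusted p = 0.277), and 1 more was too dim to be tested. The brightest probe lies on chromosome 4 at 66503724 to 66503782 and A_55_P2714823 at 66591199 to 66591258, both on the plus strand.

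Of the adaptors, Myd88 rose and Ticam1 did not pass. Myd88, on chromosome 9 at 119245322 to 119245381, minus strand, read 2.17 and 2.59 in vehicle, 2.74 and 2.65 in TP-16, 2.70 and 2.63 in anti-PD-1, and 2.93 and 3.28 in the combination. All treated arrays lay above both vehicle arrays, and the combination was 1.65-fold above vehicle (log2 0.72, SE 0.19, limma adjusted p = 0.0352). Ticam1 read -0.76 and -0.08 in vehicle, -0.43 and -0.23 in TP-16, -0.22 and -0.27 in anti-PD-1, and -0.32 and -0.09 in the combination. Every treated group overlapped vehicle, and the combination differed by 0.22 on the log2 scale (SE 0.24, limma adjusted p = 0.501), with an interval of -0.36 to 0.81.

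By the brightest probe of each gene, neither single agent changed any of the 10 at adjusted p or at the fold threshold. At an unadjusted limma p under 0.05 the count was 1 for TP-16, which was Tlr8, and 0 for anti-PD-1. The methods' t-test, which is the other tool run, also called 0 genes at the fold threshold. Among all tested probes, 1.57% rose at the fold threshold in TP-16 and 1.67% in anti-PD-1, while 4.61% and 2.16% fell. Quantile normalization turned this split, with 4.47% and 3.4% that rose and 1.88% and 1.16% that fell. At adjusted p 0.00313% and 0.0282% rose, and 0.0501% and 0.0439% fell, and this split turned too (0.307% and 0.0877% against 0.179% and 0.0251%). The 10 genes had a median log2 fold change of 0.18 under TP-16 alone and of 0.19 under the antibody alone, comparisons that share the vehicle arrays. In TP-16, 3 genes lay above vehicle without overlap, beside 17.7% of all tested probes, and in anti-PD-1 4 genes did, beside 15%. None lay below vehicle without overlap, beside 37.6% of all tested probes in TP-16 and 33.9% in anti-PD-1.

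The mean of the combination lay above the mean of each single agent in all 10 genes, but Tlr4, Tlr7 and Ticam1 overlapped both single agents. Against TP-16 the median log2 difference was 0.46 and against anti-PD-1 0.43. In each, 7 of 10 genes had combination arrays above both arrays of the single agent, beside 22.5% of all tested probes against TP-16 and 24.5% against the antibody. None had them below both, beside 36.8% against TP-16 and 41.9% against the antibody. At the fold threshold Tlr8 alone was called in each comparison, beside 3.52% and 2.3% of probes that rose and 0.821% and 1.97% that fell (under quantile normalization 2.95% and 3.02% rose, and 0.711% and 1.23% fell). None of the 10 genes passed adjusted p in either, where 0% of the tested probes rose and 0% and 0.0157% fell, although 4 genes had an unadjusted limma p under 0.05 in each. The call of Tlr8 against TP-16 was lost without combination replicate 2 and under the methods' t-test, and Tlr1 joined it without TP-16 replicate 1 or combination replicate 1. Against anti-PD-1 the count was 2 without anti-PD-1 replicate 1 and 3 without combination replicate 1. The combination arrays share a slide row with anti-PD-1 but not with TP-16, and slide columns with TP-16 but not with anti-PD-1.

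Between TP-16 and anti-PD-1, 0 of the 10 genes passed limma at the fold threshold or at an unadjusted p under 0.05, and the methods' t-test called 0, where 0.254% of all tested probes were higher and 1.29% lower in TP-16 at the fold threshold (0.548% and 0.771% under quantile normalization). The smallest unadjusted limma p was 0.11, for Tlr6, which was lower in TP-16 by 0.44 on the log2 scale with an interval of -1.01 to 0.14. The departure of the combination from the sum of both single effects was also called in 0 genes at the fold threshold, beside 2.67% of all tested probes that lay above the sum and 0.536% below it (1.44% and 1.34% under quantile normalization), with a smallest unadjusted limma p of 0.0837 for Tlr8 (0.71 on the log2 scale, interval -0.13 to 1.54). This call appeared for Tlr7 without vehicle replicate 1 and for Tlr8 without combination replicate 1.

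**Figure D4:**
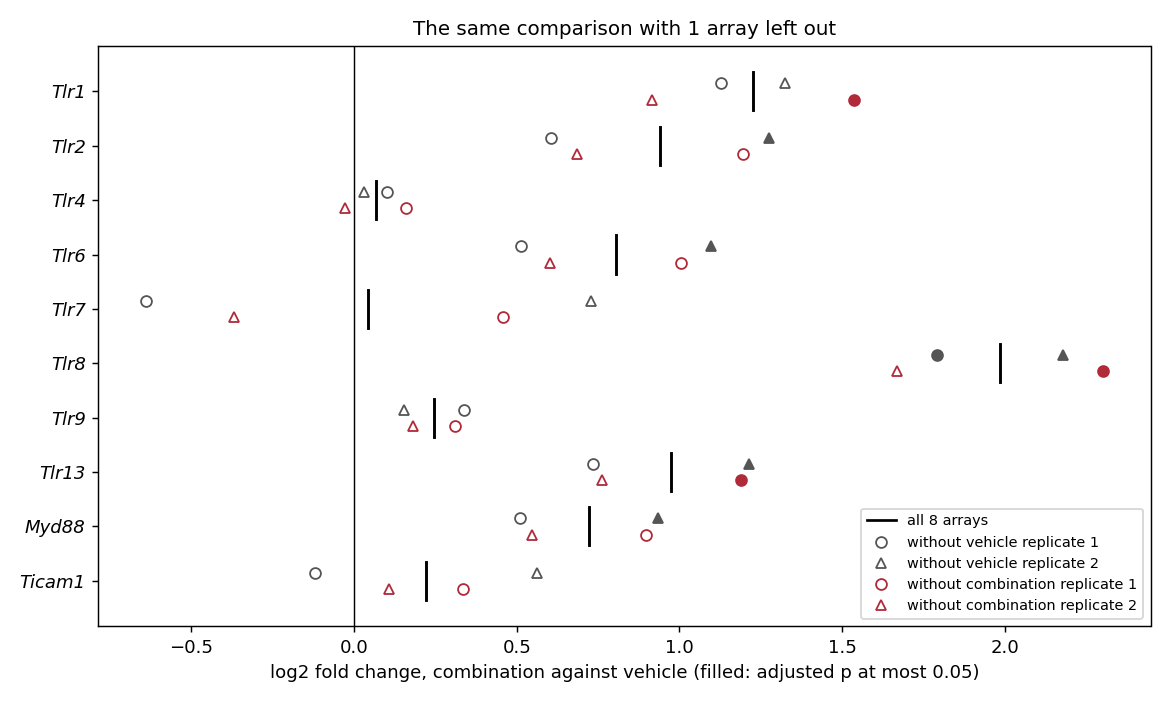
Log2 fold change of the combination against vehicle (x axis) for each gene (y axis) with all 8 arrays (black bar) and with 1 vehicle or combination array left out (points). Filled points passed adjusted p. Without combination replicate 2 (open triangles) Tlr8 lies at 1.67 and no gene passes.

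Several of the genes ran together across the 8 arrays. Pearson's r was 0.97 between Tlr13 and Myd88, 0.97 between Tlr8 and Tlr13, and 0.96 between Tlr1 and Tlr13, whereas Tlr4 and Ticam1 gave -0.05. These values describe 8 arrays of 4 groups on 1 slide and carry no test. Among 21487 other gene names, those close to Tlr8 included Smap2 (r = 0.994) and Anks1 (r = 0.993). Those most similar to Tlr13 were Man2b1 (r = 0.999), a lysosomal mannosidase, Rasa4 and C1qa, a complement gene of macrophages. Those most similar to Tlr1 were Peli1 (r = 0.997), an E3 ligase of Toll-like receptor signaling, Vav3 and Krba1. Myd88 stood closest to Irf5 (r = 0.996), a transcription factor downstream of Myd88, and Slc15a3. Tlr2 stood close to Cd86 (r = 0.993) and C1qa.

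Markers of immune cells moved in the same comparison. Of 8 macrophage markers, 7 rose in the combination at adjusted p (Adgre1 by 2.06, Mertk by 1.22, Cd68 by 1.13 and Csf1r by 0.94 on the log2 scale), and C1qc stood at 0.72 (limma adjusted p = 0.088). Their summed level, as a multiple of the 75th percentile and weighted towards the brightest probes, was 130 and 189 in vehicle, 205 and 184 in TP-16, 210 and 169 in anti-PD-1, and 264 and 382 in the combination. Combination replicate 2 was the highest array and vehicle replicate 1 the lowest, as for Tlr1, Tlr2, Tlr6, Tlr8, Tlr13 and Myd88. Of 4 general leukocyte markers 3 rose, with summed levels of 28.6 to 44.7 in vehicle and 63.0 to 84.9 in the combination. Of 6 conventional dendritic cell markers 4 rose (0.546 to 1.04 in vehicle, 2.55 to 4.20 in the combination), although Zbtb46, Xcr1 and Clec9a were not well above background in vehicle. The part of these cell types in the receptor values was not tested.

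Markers of other cell types were read in the same way. Of 5 neutrophil markers 1, Mmp8, rose, and their summed level was 46.5 to 78.6 in vehicle and 36.2 to 47.5 in the combination. That sum is mostly the bright probe of Csf3r, which did not pass, and the mean log2 level of the 5 genes was -1.59 and -0.73 in vehicle and -0.87 and -0.65 in the combination. Ly6g was not well above background in vehicle. Of 6 B-cell markers Fcrla rose while Ms4a1, Cd79a and Pax5 fell, Pax5 not under quantile normalization (0.873 to 1.496 in vehicle, 1.65 to 2.23 in the combination). Fcrla was not well above background in vehicle, nor Cd79a in the combination. Cd79b carries the higher sum, and the mean log2 level of the list was -3.38 and -2.74 in vehicle and -3.26 and -3.21 in the combination. Of 5 plasmacytoid dendritic cell markers Ccr9 and Klk1 rose and Cox6a2 fell, while Siglech stood at -0.74 (limma adjusted p = 0.103), with summed levels of 65.0 to 80.6 in vehicle and 41.4 to 50.7 in the combination. The bright probe of Siglech carries that sum, and the mean log2 level of the list went the other way, at 1.35 and 1.75 in vehicle and 1.8996 and 2.11 in the combination. T-cell markers rose in 2 of 6, with all 6 fold changes above 0. Their summed level was 22.4 and 38.5 in the combination and 2.98 and 11.6 in vehicle, whose replicate 1 lay far below replicate 2, so that the size of the difference rests in part on that array. NK-cell markers rose in 1 of 4 (0.399 to 1.05 against 1.41 to 2.00) and fibroblast markers in 3 of 5 (81.4 to 103 against 166 to 180). None of 4 endothelial markers passed (4.05 to 5.36 against 4.86 to 7.01). Among colon epithelium markers, Krt18 and Cdx2 fell and none rose of 5 tested, beside 22.9% of all tested probes that fell and 9.1% that rose. Whether this list marks the CT26 cells was not tested, and Cdx2 was not well above background in the combination. Its summed level was 74.3 to 82.7 in vehicle and 58.7 to 85.6 in the combination for the 5 genes together. Krt20 carries that sum, and the mean log2 level of the list was 0.57 and 0.48 in vehicle and -0.62 and -0.99 in the combination. Epcam and Vil1 were not tested because they were too dim. Markers of skeletal muscle (12.98 to 34.3 against 31.5 to 34.0) and epidermis (3.499 to 4.71 against 1.93 to 2.30) did not pass in any gene. Replicate 2 of TP-16 and replicate 2 of anti-PD-1 had summed epidermis levels of 27.6 and 28.0.

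Of 96 other genes of the pathway tested, 33 rose and 10 fell in the combination against vehicle at adjusted p, beside 9.1% and 22.9% of all tested probes. The 33 include Ticam2 and Il10, which neither vehicle array measured above background, and without both the count was 31 of 94. Among the 88 genes well above background on all 8 arrays, 30 rose and 10 fell. The 96 genes had a median log2 fold change of 0.40. In both single agents 0 passed adjusted p, and at the fold threshold 6 rose in TP-16 and 7 in anti-PD-1 and none fell. Of all tested probes, 1.57% and 1.67% rose and 4.61% and 2.16% fell. Under quantile normalization 4.47% and 3.4% rose, and 1.88% and 1.16% fell. Without combination replicate 2 no probe of the array passed adjusted p, so these counts also rest on that array.

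Of the other Toll-like receptors, Tlr3 (a receptor for double-stranded RNA) rose by 1.39 on the log2 scale (limma adjusted p = 0.0102). Tlr11 passed too (limma adjusted p = 0.0437), but 1 of its 2 vehicle arrays was not well above background, and its arrays read -6.38 and -3.66 in vehicle and -2.52 and -1.50 in the combination. Tlr12 stood at 4.20 (limma adjusted p = 0.0517), with vehicle arrays far apart at -4.62 and -0.54. Tlr5, the flagellin receptor, stood at -0.01 and at 0.55 under quantile normalization. Of 13 accessory and transport genes 4 rose and 2 fell. Unc93b1, which carries the nucleic acid receptors to endosomes, rose by 1.70 (limma adjusted p = 0.0262), Cd36 by 2.29, Ly86 by 1.23 and the endosomal protease gene Ctss by 1.01. Cd14, a coreceptor of Tlr4, fell by 0.51 (limma adjusted p = 0.0337), but under quantile normalization the call was lost at -0.29, and Ctsl fell by 0.72 but stood at 0.04 under that scaling. Ly96, the partner of Tlr4, varied from 2.77 to 5.73 between the vehicle arrays and gave no call.

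Of 7 genes of endogenous ligands, Hmgb1 fell by 1.24 and S100a8 by 1.09 on the log2 scale and S100a9 fell too (limma adjusted p = 0.0195), while Vcan rose by 0.91 and Tnc by 0.60, all at adjusted p. Of 4 other adaptors Ticam2, the bridge between Tlr4 and Ticam1, passed (limma adjusted p = 0.0102), but it was not well above background in vehicle and no bound exceeded 1. Tirap, which bridges Tlr2 and Tlr4 to Myd88, stood at -0.03 (limma adjusted p = 0.876). Of 21 kinases and ligases 5 rose and 3 fell, with a median of 0.00. The rises were Ikbke at 1.36, Tbk1 at 0.81, Peli1 at 0.56, Ripk1 at 0.44 and Mapk14 at 0.40, and the falls included Irak2 at -0.85 (limma adjusted p = 0.0109). Irak4 stood at 0.40 (limma adjusted p = 0.102) and Irak1 at -0.09 (limma adjusted p = 0.554).

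Of 11 transcription factor genes 6 rose and none fell, with Irf8 and Irf7 at 1.46, Irf5 at 1.42, Fos at 1.25, Rel at 1.06 and Nfkb1 at 0.41 on the log2 scale, while Rela stood at -0.22 (limma adjusted p = 0.157) and at 0.09 under quantile normalization. Of 12 negative regulators 4 rose and none fell, namely Atf3 at 1.64, Tnfaip3 at 1.17, Socs1 at 1.11 and Irak3 (limma adjusted p = 0.0124). Of 24 target genes 9 rose and 2 fell, with a median of 0.77. Ccl5 rose by 4.05, Nos2 by 2.85 and Tnf by 2.15, while Il6 fell by 1.16 and Cxcl1 by 1.07 (limma adjusted p = 0.0175 and 0.0449), and the call of Cxcl1 was lost under quantile normalization (limma adjusted p = 0.0552). Il10 was not well above background in vehicle and was at least 1.70-fold higher in the combination. Il1b stood at -0.16 (limma adjusted p = 0.477) and Ifnb1 at 0.32 (limma adjusted p = 0.597).

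**Figure D5:**
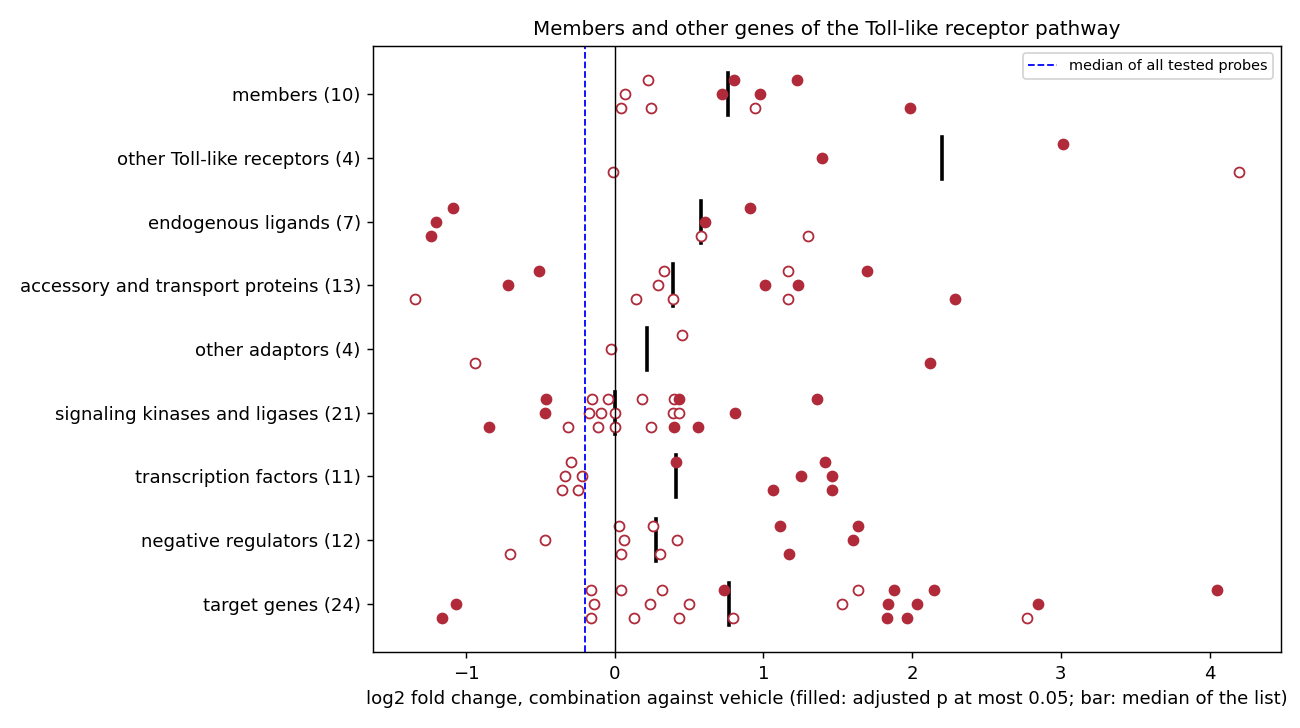
Log2 fold change of the combination against vehicle (x axis) for the 10 genes and for 96 other genes of the pathway by list (y axis, number tested in brackets). Each point is a gene, filled where it passed adjusted p, black bars are list medians, and the dashed line is the median of all tested probes at -0.20. The 10 genes have a median of 0.76 and the 21 kinases and ligases one of 0.00.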

How the data were processed

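RNA of CT26 tumors, 2 samples in each of 4 groups, was measured on 1-colour Agilent arrays. Per array, the authors deposited scanner output (Feature Extraction 10.7.1.1, per the labels), whose spot intensities are background-subtracted and detrended. They also deposited a table of log2 values made in GeneSpring, whose kind of normalization is not given in the sources used here. Its columns hold nearly the same sorted values, as after quantile normalization, so these 2 alternatives are close to the same. The methods name TRIzol for the RNA and the labels a column kit. Control spots and 38 probes with outlier marks were removed, spots of a probe were averaged, and log2 intensities were taken relative to the 75th percentile of the array. A probe was tested where some group had it well above background in both of its samples (31912 of 56567), in 1 limma 3.58.1 fit (R 4.3.3) of all 8 arrays with 1 mean per group. All 10 genes and their 17 tested probes were named (a gene by its brightest probe), with pathway and marker lists. These genes and lists were chosen with earlier results of these data known. Gene names are those of the array annotation, and 15 of the 19 probes carry RefSeq accessions, all of the same symbol. Positions are those of mm9, for which no annotation of exons was used here. Calculations were tested on simulated data. Figures were drawn in matplotlib. Alternatives were quantile normalization, normexp with an offset of 50, other filters, the authors' log2 values, a replicate block, only the groups compared, robust moderation with a trend, each array left out, the methods' t-test and, chosen after seeing the data, other probes. The number of arrays limits the precision.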

Additional observations from a re-analysis of the deposited data

Results flagged for a closer look

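The dimmer tested Tlr7 probe, A_55_P2129047, departed from the sum of both single-agent effects by 0.98 on the log2 scale in the combination (interval 0.11 to 1.84). It was noted because the combination and the single agents differed by limma's test of the difference itself before adjustment, while the limma adjusted p was 0.635. The brighter Tlr7 probe gave 0.80 (interval -0.98 to 2.59). Groups of 2 arrays are too small to tell which array of a pair stands apart. Over all tested probes, replicate differences had a standard deviation of 0.68 in vehicle, 0.53 in TP-16, 0.43 in anti-PD-1 and 0.42 in the combination.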

How the results depend on the processing

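The count of the 10 genes at the fold threshold in the combination against vehicle, 2, was 1 under the methods' t-test, 4 with the other probe of Tlr1, Tlr4, Tlr7 and Tlr13 (chosen after seeing the data) and 1 to 5 with 1 array left out. Its count at adjusted p, 5, was 1 with no filter on dim probes, 0 with only the groups compared or the methods' t-test, and 0 to 5 with 1 array left out. It was 6, with Tlr2 added, under normexp, for probes well above background on all arrays and under trended and robust moderation, and 6 with the other probes, with Tlr7 added. Against TP-16 the count of 1 was 0 under the t-test, 2 with the other probes and 0 to 2 with 1 array left out. Against anti-PD-1 it was 3 with the other probes and 1 to 3 with 1 array left out, and the adjusted count of 0 was 3 under normexp and 1 both for probes well above background on all arrays and under trended and robust moderation. The departure from additivity was called in 0 to 1 genes with 1 array left out. With the lone array of a group assumed to vary like the others, the cause of these shifts was not tested.

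Replicate differences of different groups correlated from -0.19 to 0.29, which cannot settle whether the replicate numbers pair the samples. The main fit used no pairing. With a replicate block the count of genes at adjusted p in the combination against vehicle was 4 (Tlr6 at 0.0507), and the count at the fold threshold stayed at 2. Over all tested probes the adjusted calls were 8700 with the block and 10217 without it.

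Some small log2 fold changes turned sign. In TP-16, Tlr4 (-0.01) was 0.0017 under quantile normalization, 0.066 under normexp and 0.0034 in the authors' values, and Tlr7 was 0.19 with its other probe. With 1 array left out, TP-16 against vehicle ranged from -0.14 to 0.12 for Tlr4, -0.20 to 0.38 for Tlr6, -0.25 to 0.43 for Ticam1 and -1.06 to 0.31 for Tlr7. Anti-PD-1 ranged from -0.16 to 0.51 for Tlr2, -0.034 to 0.44 for Tlr13, -0.16 to 0.52 for Ticam1, -0.10 to 0.12 for Tlr4 and -1.06 to 0.30 for Tlr7. The combination ranged from -0.64 to 0.73 for Tlr7, -0.12 to 0.56 for Ticam1 and -0.026 to 0.16 for Tlr4. In the combination against vehicle, the filters, the block, only the groups compared, the moderation and the t-test leave each fold change as it is. Leaving out a TP-16 or anti-PD-1 array does so too, and a direction could turn only in the remaining settings. With that limit, Tlr8, Tlr1, Tlr13, Tlr6, Tlr2, Myd88 and Tlr9 kept their direction under all 18 alternatives. Tlr8 passed adjusted p in 15 of them, Tlr13 in 13, Tlr1 in 12, Myd88 in 8, Tlr6 in 5, Tlr2 in 4 and Tlr7 in 1 (its other probe). Over all tested probes, calls at the fold threshold in the combination against vehicle numbered 4879, but 11733 with no filter, 2591 under normexp, 3259 for probes well above background on all arrays and 2255 under the t-test. Those at adjusted p, 10217, were 16715 under normexp, 5736 with no filter and 0 with only the groups compared or the t-test. In TP-16 the 17 at adjusted p were 5945 under normexp, 1301 under trended and robust moderation and 0 to 189 otherwise with all arrays kept. A slide block was not run because all arrays lay on 1 slide.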
